A study of Mus musculus with 4 samples.

Results

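The regions described here are isolated stretches of open chromatin that lie deep inside genes. They were chosen by a rule on the deposited peak lists of 4 ATAC-seq libraries: autosomal peaks that overlapped by at least 1 bp were merged, and a merged region was kept when all 4 libraries had a peak in it. Its mean summit, the average position of the peaks' highest points, also had to lie inside a protein-coding gene and more than 10 kb from any protein-coding gene end, with no other region shared by all 4 libraries within 12.5 kb. Of 44742 merged regions, 16657 were shared by all 4 libraries, and 1302 of those (7.82%) met the whole rule and are called isolated deep regions here. Calls, positions and spacing thus selected the regions and are given as description.

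The mice were wild type (WT, 2 libraries) or lacked Sphk2 (Sphk2 KO, 2 libraries), the gene for sphingosine kinase 2, an enzyme that makes the signalling lipid sphingosine 1-phosphate. Both groups carried EL4 cells, which derive from a mouse T cell lymphoma, and after 14 days Gr1+CD11b+ myeloid-derived suppressor cells were sorted from ascitic fluid. Each library was made from 20000 cells with 40% of the recommended Tn5. The labels call the libraries biological replicates without tying them to animals and give neither the age nor the strain of the mice, so the spread between libraries may be partly technical.

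Myeloid-derived suppressor cells are immature myeloid cells, granulocytic or monocytic, that restrain T cells in tumour-bearing hosts. In ATAC-seq the Tn5 transposase inserts adapters where DNA is not wrapped in nucleosomes, so a peak marks a promoter, an enhancer or another open element without saying which. Open elements inside a gene can be enhancers, which bind transcription factors and may act on the gene around them or on another one, or promoters from which shorter or alternative transcripts begin.

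The isolated deep regions that ranked highest were often placed on an annotated transcript start, so the sequences around 6 such starts are shown first. Each is a RefSeq window (GRCm38.p6, the assembly that mm10 names) from 250 bases before to 50 bases after a start of the host gene, printed 5′ to 3′ along the transcript. Capitals mark matches, on either strand, to the ETS core CCGGAA, to the GC box GGGCGG, to the CCAAT box, to GAAANNGAA, which resembles the interferon-stimulated response element, or to the ROR element TAGGTCA. The windows lie at chr1:92180292-92180591 (minus strand) for Hdac4, at chr3:106721432-106721731 (plus strand) for Lrif1, at chr9:100643198-100643497 (plus strand) for Stag1, at chr7:80803282-80803581 (minus strand) for Iqgap1, at chr5:135688895-135689194 (plus strand) for Por, and at chr1:93635678-93635977 (minus strand) for Stk25. The mean summits lay between 2.75 bp (Stag1) and 180.5 bp (Hdac4) from these starts.
Hdac4: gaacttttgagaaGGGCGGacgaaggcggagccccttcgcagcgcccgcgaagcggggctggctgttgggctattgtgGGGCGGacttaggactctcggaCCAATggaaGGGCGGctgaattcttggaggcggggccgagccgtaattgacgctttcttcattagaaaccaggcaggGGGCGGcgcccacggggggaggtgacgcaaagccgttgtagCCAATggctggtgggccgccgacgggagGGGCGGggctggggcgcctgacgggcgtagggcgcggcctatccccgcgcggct
Lrif1: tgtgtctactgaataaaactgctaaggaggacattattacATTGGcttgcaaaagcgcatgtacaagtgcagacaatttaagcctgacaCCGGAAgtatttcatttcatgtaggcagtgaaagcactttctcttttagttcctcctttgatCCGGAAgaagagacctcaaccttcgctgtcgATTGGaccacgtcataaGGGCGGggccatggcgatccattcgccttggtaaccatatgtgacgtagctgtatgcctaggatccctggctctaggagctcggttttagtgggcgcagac
Stag1: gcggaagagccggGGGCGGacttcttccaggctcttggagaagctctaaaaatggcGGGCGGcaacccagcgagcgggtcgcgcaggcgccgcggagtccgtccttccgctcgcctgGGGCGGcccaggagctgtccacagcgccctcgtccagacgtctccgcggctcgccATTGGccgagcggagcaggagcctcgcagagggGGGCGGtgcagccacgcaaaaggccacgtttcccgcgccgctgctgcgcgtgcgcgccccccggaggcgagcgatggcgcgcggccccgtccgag
Iqgap1: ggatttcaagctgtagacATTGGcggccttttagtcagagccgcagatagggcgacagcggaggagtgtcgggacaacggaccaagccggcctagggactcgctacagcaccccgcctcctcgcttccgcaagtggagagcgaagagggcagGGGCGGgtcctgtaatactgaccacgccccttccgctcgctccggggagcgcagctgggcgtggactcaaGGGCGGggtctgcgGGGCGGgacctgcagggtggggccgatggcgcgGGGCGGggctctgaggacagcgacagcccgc
Por: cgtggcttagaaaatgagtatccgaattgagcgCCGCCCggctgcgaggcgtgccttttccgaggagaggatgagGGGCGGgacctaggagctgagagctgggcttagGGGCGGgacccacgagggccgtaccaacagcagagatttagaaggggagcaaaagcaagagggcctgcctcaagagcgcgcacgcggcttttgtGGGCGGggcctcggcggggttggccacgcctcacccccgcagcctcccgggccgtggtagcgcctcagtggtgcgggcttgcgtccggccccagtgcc
Stk25: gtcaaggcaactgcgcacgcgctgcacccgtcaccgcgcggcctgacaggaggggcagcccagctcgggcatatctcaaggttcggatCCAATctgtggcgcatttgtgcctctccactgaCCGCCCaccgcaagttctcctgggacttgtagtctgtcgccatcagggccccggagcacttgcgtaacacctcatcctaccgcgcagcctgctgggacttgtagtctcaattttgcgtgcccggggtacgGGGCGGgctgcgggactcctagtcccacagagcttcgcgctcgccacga

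These 6 windows were rich in the letters of CpG-type promoters. Hdac4, which encodes a class II histone deacetylase, had 5 GC boxes and 2 CCAAT boxes, a GC content of 68% and an observed-to-expected CpG ratio of 0.982. The Stag1 window, of a cohesin subunit gene, reached 73.7% GC and a ratio of 1.06. Lrif1, which encodes a nuclear receptor-interacting factor, had the lowest GC content of the 6 (47.7%), 2 ETS cores and 1 GC box. Windows of Iqgap1, a scaffold protein of the actin cytoskeleton, and of Por, the oxidoreductase that passes electrons to cytochrome P450 enzymes, had 4 GC boxes each, and that of the kinase gene Stk25 had 2.

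The other 3 windows printed here belong to regions that ranked higher in WT than in Sphk2 KO, and were picked for printing after their values were seen. They lie at chr7:104446076-104446375 (minus strand) in Trim30a, a tripartite motif gene of innate immunity, at chr7:113207215-113207514 (plus strand) in Arntl, which encodes the core clock factor BMAL1, and at chr3:89730468-89730767 (plus strand) in Adar, the RNA-editing enzyme known to be made from several promoters, one of them induced by interferon.
Trim30a: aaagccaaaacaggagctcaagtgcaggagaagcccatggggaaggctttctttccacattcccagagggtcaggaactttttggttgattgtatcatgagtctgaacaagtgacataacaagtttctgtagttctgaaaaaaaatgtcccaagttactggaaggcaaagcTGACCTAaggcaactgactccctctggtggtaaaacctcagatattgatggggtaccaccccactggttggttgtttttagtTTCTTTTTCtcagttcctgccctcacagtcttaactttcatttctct
Arntl: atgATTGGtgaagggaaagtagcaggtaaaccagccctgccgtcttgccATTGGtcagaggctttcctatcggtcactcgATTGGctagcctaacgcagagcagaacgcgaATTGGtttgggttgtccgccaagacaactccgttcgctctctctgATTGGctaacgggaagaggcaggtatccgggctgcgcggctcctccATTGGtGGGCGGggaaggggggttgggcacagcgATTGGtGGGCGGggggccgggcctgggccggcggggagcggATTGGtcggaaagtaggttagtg
Adar: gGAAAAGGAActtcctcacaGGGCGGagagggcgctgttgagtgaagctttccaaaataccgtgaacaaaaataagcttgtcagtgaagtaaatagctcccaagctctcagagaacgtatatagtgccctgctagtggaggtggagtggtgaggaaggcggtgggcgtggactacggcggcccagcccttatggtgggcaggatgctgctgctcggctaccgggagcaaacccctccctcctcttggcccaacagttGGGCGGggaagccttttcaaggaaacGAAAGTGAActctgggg

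The Arntl window held 8 CCAAT boxes and 2 GC boxes and no exact match to the ROR letters TAGGTCA. Variants of those letters were not searched, so the taggtta near the end of the Arntl window was not counted. Trim30a held 1 match to the interferon-response letters and 1 to the ROR letters in a window with no CpG, and Adar held 2 matches to the interferon-response letters and 2 GC boxes. Of all 31396 autosomal start windows, 8.52% held the interferon-response letters and 2.63% the ROR letters. A match is a description of the letters and not a binding site.

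An annotated start lay inside 148 of the 1255 isolated deep regions on chromosomes covered by the start table (11.8%). The start belonged to the host gene in 130 and to another gene alone in 18. The nearest start was more than 10 kb away for 976 (77.8%), and the median distance was 25.7 kb. Among shared regions deep inside genes that were not isolated, 113 of 1438 (7.86%) held a start, as did 6.28% of shared regions between genes and 79.98% of those within 1 kb of a gene end.

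Depth inside a gene was measured from the outermost ends of the RefSeq gene, and for some hosts those ends reach beyond the listed starts. In 53 of the 130 regions with a start of the host (40.8%), the region held every start listed for that gene. This was the case for Hdac4, Stag1, Iqgap1, Por, Stk25 and Arntl, whose only listed starts lay 15.4, 45.7, 12.2, 19.1, 18.5 and 29.0 kb from the 5′ end of the gene. In the other 77 another start was listed elsewhere, and in 34 of those another start also lay in a shared region. Adar was of this kind, with 2 other starts 15.7 and 15.4 kb away in a shared region, and so was Trim30a, with 1 other start 19.0 kb away. Lrif1 had a second start 36.9 kb away that lay in a called region, though not in one shared by all 4 libraries.

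**Figure D1:**
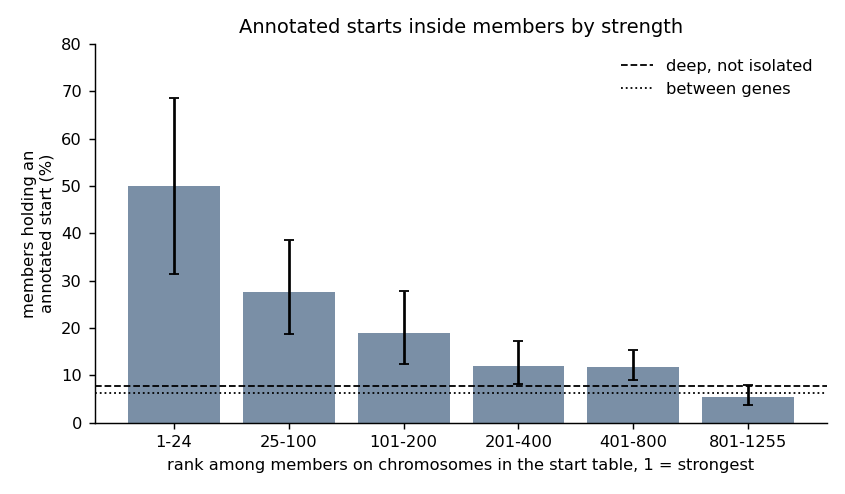
Share of isolated deep regions that hold an annotated start (y axis, %), in bins of rank by the worst of the 4 ranks by −log10 q (x axis, 1 = strongest), over the 1255 regions off chromosome 18. Bars show shares with 95% Wilson intervals, which cover counting error only, and lines show the shares of deep regions that were not isolated (7.86%) and of regions between genes (6.28%); the share was 50% in the first bin and 5.50% in the last.

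Regions were ranked by the −log10 q of their best peak, the authors' own score of how far a peak stands above local background, within each library's list. Those with a start sat higher in this order. Over the 1255 regions off chromosome 18, ordered by the worst of their 4 ranks, 12 of the best 24 held a start, of ranks 25 to 100 27.6%, of ranks 101 to 200 19%, of ranks 201 to 400 12%, of ranks 401 to 800 11.8% and of ranks 801 to 1255 5.50%. Of the best 24 on all autosomes, 3 of them on chromosome 18, 11 held one. The strength used here also chose the genes named, so the order is descriptive. A rank percentile was then computed for every region among the same 16657 shared regions in each library, with 100 the strongest. Regions with a start had median percentiles of 54.6 in WT replicate 1, 52.1 in WT replicate 2, 52.0 in Sphk2 KO replicate 1 and 51.5 in Sphk2 KO replicate 2. Regions without one had 30.2, 32.2, 34.5 and 33.3. The first set lay higher in each of the 4 libraries.

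The base composition of starts inside isolated deep regions lay between that of starts in shared regions at gene ends and that of starts outside any called region. These starts include the only listed starts of some hosts, and starts of genes other than the host. The 182 start windows inside isolated deep regions, of 159 genes, had a median GC content of 61% and a CpG ratio of 0.714, and 64.3% of them had a ratio of at least 0.6. Windows in shared regions at gene ends had 62.7% GC, a ratio of 0.829 and 84.5% at or above 0.6. Windows outside any called region had 49% GC, a ratio of 0.242 and 14.1%. The 130 other starts of the same hosts had 55.3% GC and 42.3% at or above 0.6. Hosts with every listed start inside an isolated deep region add none to this set. The 45 of these that lay in a shared region had 64% GC, a ratio of 0.773 and 73.3% at or above 0.6, all above the values of the internal starts.

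Motif letters followed the same order for some promoter elements and not for others. The GC box was in 57.1% of windows inside isolated deep regions, in 70.7% of those at gene ends, in 19.4% of those outside called regions and in 36.0% of all windows. The ETS core was in 21.4%, 34.5%, 6.27% and 15.1% of these sets. The TATA box letters TATAAA were in 3.30%, 5.44%, 17.7% and 13.6%. The letters GAGGAAGT, an ETS variant favoured by the myeloid factor PU.1, were in 16 of 182 windows (8.79%), against 3.42% at gene ends, 3.00% outside called regions and 3.25% of all. Among letters of other blood cell factors, those of the RUNX site, TGTGGTT, were in 3.85% against 5.32% of all windows, and those of the C/EBP site, TTGCNNAA, in 11.5% against 10.9%. The PU.1 letters were 1 of 14 motifs searched on both strands. The CCAAT box varied little over the sets compared for the GC box, from 35.7% to 39.3%. It was in 42.3% of the 130 other starts of the same hosts, and in 51.1% of the 45 of them in a shared region. No test was made of these shares, and starts of 1 gene can share bases.

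**Figure D2:**
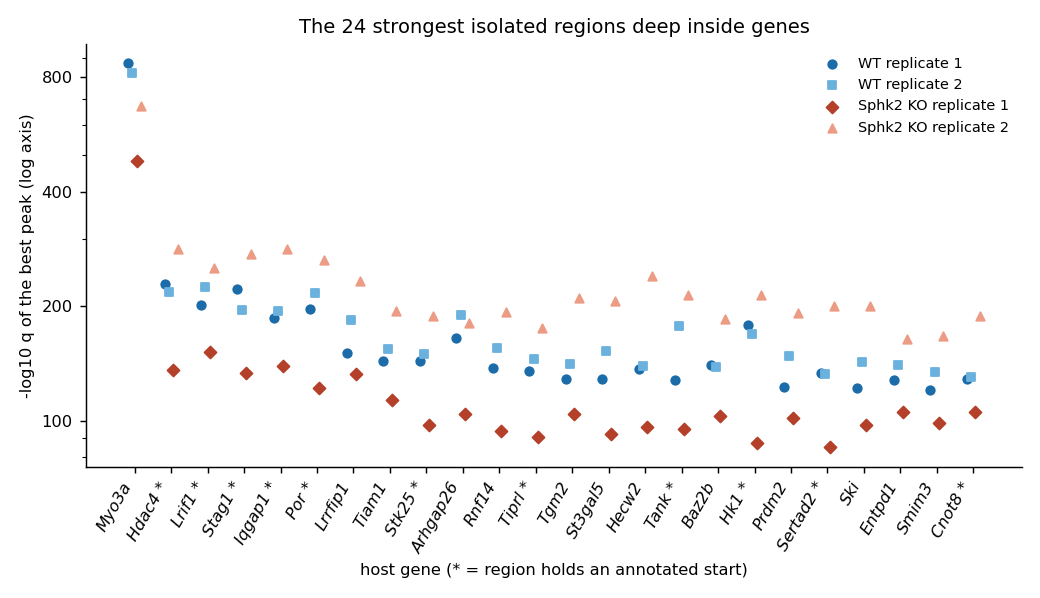
The authors' −log10 q of the best peak in each library (y axis, log scale) for the 24 isolated deep regions with the best worst-of-4 rank (x axis, host gene). Points are single libraries, a star marks a region with an annotated start, and the Myo3a region stands above all others in every library.

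The strongest region lay inside Myo3a, the gene of a myosin of sensory hair cells, at 22588653 to 22590211 on chromosome 2. Its −log10 q was 871.6 in WT replicate 1, 822.2 in WT replicate 2, 483.3 in Sphk2 KO replicate 1 and 671.2 in Sphk2 KO replicate 2. Its pileup, the number of fragments stacked at the summit, was 1978, 2083, 1211 and 1742, while the other 23 of the strongest 24 had 122 to 426. Its fold enrichment over local background was only 6.43, 5.67, 5.75 and 5.53, against 8.02 to 15.4 for those 23. All 4 libraries placed its summit on the same base. The region thus combined the tallest pileup with a modest fold, and the nearest start was 32951 bp away. No filter for repeated or poorly mapped sequence was applied here, so whether this peak marks open chromatin was not tested.

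The next hosts covered chromatin, cytoskeletal and metabolic genes. Hdac4 had −log10 q of 228.5, 217.5, 136.2 and 282.4, given as throughout in the order WT replicates 1 and 2, then Sphk2 KO replicates 1 and 2. Lrif1 had 201.2, 223.9, 151.4 and 251.9, and Stag1 had 222.5, 194.9, 133.1 and 273.8. For each of these 3 the lowest value was that of Sphk2 KO replicate 1 and the highest that of Sphk2 KO replicate 2. This order was general. Sphk2 KO replicate 1 held the lowest −log10 q in 1019 of the 1302 regions, and Sphk2 KO replicate 2 held the highest in 794. In the same library order, fragments kept were 33859480, 34443062, 25877428 and 27686223, so both Sphk2 KO libraries had fewer than WT. The cause of the order was not tested.

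Iqgap1 had −log10 q of 186.3, 193.9, 139.1 and 282.2, Por had 196.8, 217.0, 121.7 and 264.3, and Stk25 had 143.3, 149.3, 97.5 and 188.6. Further starts among the strongest 24 were those of Tiprl, a regulator of PP2A-type phosphatases, of Tank, a TRAF-binding adaptor, of Hk1, hexokinase 1, of Sertad2, and of Cnot8, a subunit of the deadenylase complex that shortens messenger RNA tails. The Hk1 region, with 178.3, 169.1, 87.5 and 214.4, held the starts of Hk1 and of the antisense gene Hk1os.

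Among the strongest regions without an annotated start were those of Lrrfip1 and Tiam1. Lrrfip1, a binding partner of nucleic acids and of Flightless proteins, had 150.4, 184.0, 132.6 and 233.3, with summits within 2 bp. Tiam1, an exchange factor that activates Rac, had 143.8, 153.8, 113.5 and 194.2, in a region 61.6 kb from a gene end. Others were in St3gal5, the ganglioside GM3 synthase, Hecw2, a ubiquitin ligase, Baz2b, a bromodomain protein, Ski, a repressor of TGF-beta signalling, and Entpd1, which encodes the ecto-enzyme CD39. The Entpd1 region, at 40707718 to 40708986 on chromosome 19, had 128, 140, 105.5 and 163.8, and its 4 summits lay within 1 bp. Arhgap26, Rnf14, Tgm2, Prdm2 and Smim3 completed the 24. The start table did not cover the chromosome of Arhgap26, Rnf14 and Smim3, so their starts were not analysed here.

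As a class, isolated deep regions were moderate peaks. Their median −log10 q was 21.5, 26.3, 14.4 and 29.1, and their median rank percentile was 33.1, 34.7, 36.4 and 35.9. Shared regions at gene ends had median percentiles of 66.6, 66.1, 64.8 and 65.9, deep regions that were not isolated had 36.4, 35.4, 39.3 and 37.4, and regions between genes had 36.6, 36.8, 38.1 and 37.1. By this score the isolated deep regions were the lowest of these 4 classes by median in every library. A −log10 q of at least 10 in all 4 libraries was reached by 783 regions and of at least 50 by 134, while 191 were under 5 in at least 1 library. The weakest call had 1.41.

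Fold enrichment and pileup placed the class differently. Median fold enrichment was 7.19, 7.20, 6.36 and 7.93, above the 6.47, 6.25, 5.77 and 6.66 of deep regions that were not isolated and the 6.84, 6.74, 5.97 and 7.20 of regions between genes. Median pileup was 40, 49, 29 and 51, below the 50, 61, 37 and 66 of deep regions that were not isolated. Isolated deep regions thus had fewer fragments at the summit and a higher fold over local background in each of the 4 libraries. The local background was taken over 10 kb, and the rule kept other shared regions 12.5 kb away. Deep regions that were not isolated had a shared neighbour within that distance, so the comparison of fold was not independent of the rule. At gene ends the fold was 9.80, 9.29, 8.42 and 9.99.

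**Figure D3:**
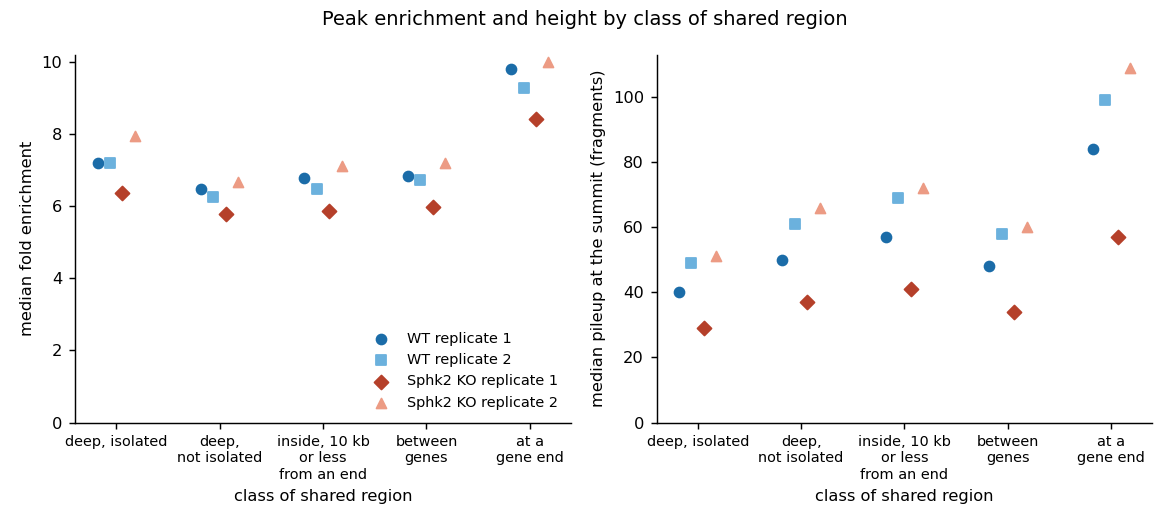
Median fold enrichment (left) and median pileup in fragments (right) of the best peak, for 5 classes of shared region (x axis). Each point is 1 library. In all 4 libraries isolated deep regions had a higher median fold and a lower median pileup than deep regions that were not isolated. The rule on distance to other shared regions bears on the local background, so the fold is not independent of it.

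The 4 libraries placed their peaks close together. A single peak in each library made up 1217 of the 1302 regions, and the median width of the merged region was 915 bp (248 to 3493). The median peak width was 646.5, 750, 585.5 and 752.5 bp. The 4 summits of a region spanned a median of 66.5 bp, within 100 bp in 860 regions (66.1%) and within 20 bp in 180. In shared regions at gene ends the span was 52 bp, and 73.9% were within 100 bp. Those with a start spanned 59 bp and those without one 67 bp.

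Isolation from other shared regions did not mean that nothing else was called nearby. Another region of 1 to 3 libraries lay within 12.5 kb of 600 isolated deep regions, and 702 had no region of any kind that close. The median distance to the next shared region was 27.1 kb, and it exceeded 100 kb for 127 regions. The median distance to a gene end was 29.9 kb, over 50 kb for 350 and over 100 kb for 120. The greatest, 745.6 kb, was in Robo2, an axon guidance receptor gene, where the call was weak (−log10 q 3.34, 5.44, 3.06 and 3.83).

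The regions closest to the limits of the rule are given here without a test. The nearest inside the 10 kb limit were in Gramd4 (10.043 kb, −log10 q 19.7, 27.4, 8.76 and 26.9), Cep250 (10.049 kb) and Tnfaip8 (10.124 kb). The nearest outside were in Fanca (9.9905 kb, 46.8, 37.3, 36.8 and 43.2), Nemp2 (9.9642 kb) and Fpgs (9.9637 kb). For the 12.5 kb limit, Celsr2, Rtn4 and Xylt1 lay inside at 12.513, 12.541 and 12.556 kb, and Lcp1, Srrm2 and Smad3 outside at 12.48, 12.463 and 12.416 kb.

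The 1302 regions lay in 986 host genes, of which 763 held 1 region, 161 held 2 and 62 held 3 or more, and 3 regions lay in 2 overlapping genes. Only 9424 genes have any stretch farther than 10 kb from every protein-coding gene end, together 707.3 Mb, so 10.5% of the genes with such room were hosts. That room held 1.84 isolated deep regions per Mb. Hosts were long, with a median of 107.5 kb against 50.1 kb for all genes with room. Arhgap26, a GTPase-activating protein, and Pde4d, a cAMP phosphodiesterase, held 7 each. Etv6 and Foxp1, transcription factors of blood cells, held 6 each, and Itpr1, an inositol trisphosphate receptor, and Prkch, a protein kinase C, held 5 each.

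Regions within 1 host differed widely in strength. In Arhgap26, −log10 q in WT replicate 1 ran from 10.3 to 165.1, and in Etv6 from 4.64 to 44.4. The 7 regions of Pde4d were all modest, with 16.1 to 22.1 in that library, and spread over the gene from 44.2% to 98.2% of its length. Foxp1 ran from 8.82 to 34.5, and its weakest region there held an annotated start of the gene.

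**Figure D4:**
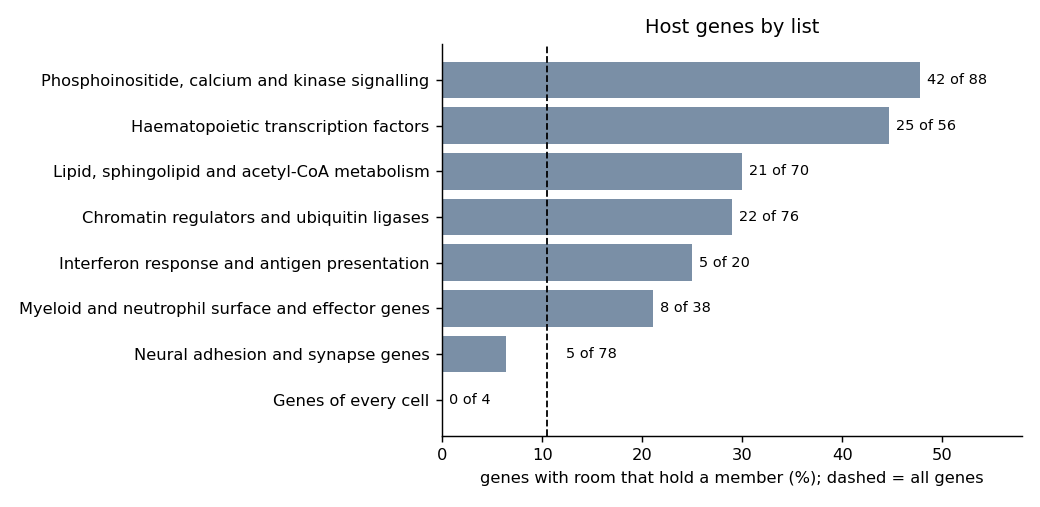
Share of genes with room for an isolated deep region that held at least 1 (x axis, %), by gene list (y axis), with the number of hosts beside each bar. The dashed line is the share of all genes with room (10.5%); of the 8 lists drawn, 6 lay above it, and neural and every-cell genes below.

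Hosts were common among signalling and blood transcription factor genes. Of 88 phosphoinositide, calcium and kinase signalling genes with room 42 were hosts (47.7%) and of 56 haematopoietic transcription factors 25 (44.6%), where 10.5% of all genes with room were. Both lists hold long genes, with median lengths of 118.4 and 93.9 kb. Per Mb of room they held 5.99 and 7.64 isolated deep regions, against 1.84 over all genes. Neural adhesion and synapse genes, the longest of the lists at a median of 869.6 kb, held 5 regions in 72.4 Mb, or 0.0691 per Mb, in Cacnb2, Ctnnd2, Sox5, Robo2 and Pcdh9.

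Among signalling genes, Ptprj, a receptor tyrosine phosphatase, had −log10 q of 121.4, 114.0, 111.3 and 181.6. Prkch had 100, 118.8, 81.8 and 142.2 in its strongest region, and Map3k5, a stress kinase, had 97.8, 106.9, 68.9 and 123.1. The region of Ppp2r5c, a PP2A regulatory subunit, held an annotated start. The region of Arhgap18, another GTPase-activating protein, had 83.9, 104.5, 67.7 and 130.1. In all of these the lowest value was that of Sphk2 KO replicate 1, as in 78.3% of all isolated deep regions.

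Blood transcription factors were represented by several lineage regulators. Mef2c had −log10 q of 77.8, 127, 66.2 and 124.2, Zeb2 had 91.2, 85.0, 37.5 and 83.7, and Runx1 had 56.2, 70.5, 36.2 and 80.1. Runx1 is a master regulator of blood stem cells, and Zeb2 and Mef2c act in the monocyte and granulocyte lineages among others. Zeb1 had 63.6, 66.1, 39.6 and 88.0. Other hosts of this list included Spi1, which encodes PU.1, with Ikzf1, Irf2, Nfkb1, Rel and Runx3.

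Of myeloid surface and effector genes with room, 8 of 38 were hosts (21.1%). The list holds shorter genes, with a median length of 40.9 kb. Per Mb of room it held 5.3 isolated deep regions, against 5.99 for signalling genes and 1.84 over all genes. The hosts were Plxnc1, Itgam, Gda, Nrp2, Cd44, F13a1, Il6ra and Tgfbr2. Itgam encodes CD11b, an antigen used in the sort, and its region at 128088866 to 128089701 on chromosome 7 had −log10 q of 32.1, 38.2, 20.5 and 40.9. Its rank percentiles, 47.6 and 48.6 in WT against 48.3 and 47.5 in Sphk2 KO, overlapped.

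Lipid genes, to which the title of the study points through acetyl-CoA carboxylase and phosphatidylcholine, were hosts in 21 of 70 cases (30%). Asah1, acid ceramidase, had −log10 q of 94.9, 97.0, 58.7 and 140. Acaca, which encodes acetyl-CoA carboxylase 1, had 81.6, 108.1, 60.9 and 133.4 in a region at 84179192 to 84180374 on chromosome 11, 237.4 kb from the next shared region. The Acaca percentiles, 80.9 and 86.3 in WT against 84.0 and 86.7 in Sphk2 KO, overlapped. Acer3, an alkaline ceramidase, had 82.9, 86.6, 43.3 and 134.4 in a region with an annotated start. Osbpl11, an oxysterol-binding protein gene, had 49.96, 56.8, 35.1 and 83.8, also at a start. Lpcat1, Lpcat2, Lpcat3, Chka, Cers6, Sgms1 and Srebf2 were among the other hosts.

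Chromatin regulators and ubiquitin ligases were hosts in 22 of 76 cases (28.9%), and interferon and antigen presentation genes in 5 of 20 (25%). Per Mb of room these lists held 3.91 and 12.2 isolated deep regions, the latter from only 0.409 Mb. Chd9, a chromatin remodeller, had 127, 125.4, 71.7 and 136, and Kat2b, an acetyltransferase, had 41.2, 47.5, 35.3 and 55.8. The genes of every cell, with 4 that have room, had no host.

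Hosts more often had an open gene end as well. A shared region lay within 1 kb of an own end in 557 of 986 hosts (56.5%), against 46.3% of all protein-coding genes over 20 kb and 45.1% of genes with room that held no isolated deep region. Of signalling hosts 83.3% had one, where 66 of all 88 signalling genes with room did. Along the gene the regions lay in similar numbers on both sides of the midpoint: of 1014 whose host had a known strand, 52.5% lay in the 5′ part up to the midpoint, at a median position of 48.5% of the gene. By successive 10% of gene length they were fewest at the ends, with 37 and 34 in the outermost parts against 139 and 140 beside the midpoint, and the rule itself keeps 10 kb from each end clear. Deep regions that were not isolated lay farther towards the 5′ end, 63.9% of 1204 at a median of 41.0%. The table of genes used here gives no exons, so whether a region was exonic or intronic was not analysed here.

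A microRNA hairpin lay inside 3 isolated deep regions. Mir3092 lay in a region of Fndc3b (−log10 q 63.2, 66.7, 39.6 and 80.2), Mir7687 in one of Gse1 (63.5, 57.6, 38.1 and 78.8) and Mir1904 in one of Pde4d (16.2, 15.9, 12.1 and 19.99).

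The genotypes were compared by rank percentile among the same shared regions, which asks whether a region stood higher in one genotype than in the other relative to the rest. The percentiles of the 2 Sphk2 KO libraries were both above those of the 2 WT libraries in 346 isolated deep regions (26.6%), and both below in 250 (19.2%). Over all shared regions these shares were 22.1% and 21.4%. With ranks taken as a percentile of each whole list, which are longer for WT, the split was 41 and 665 (3.15% and 51.1%), and that of all shared regions 2.50% and 54.4%. With 1 library left out, which then stands alone for its group, regions higher in Sphk2 KO numbered 510 without WT replicate 1, 565 without WT replicate 2, 541 without Sphk2 KO replicate 1 and 555 without Sphk2 KO replicate 2, and regions higher in WT numbered 410, 391, 400 and 423. These were 39.2%, 43.4%, 41.6% and 42.6% higher in Sphk2 KO, where all shared regions had 35.8%, 36.4%, 36.1% and 37.2%. Higher in WT were 31.5%, 30.03%, 30.7% and 32.5%, where all shared regions had 34.8%, 35.4%, 34.4% and 36.9%. The median of Sphk2 KO minus WT was 1.32 percentile points, with 90% of regions between -14.1 and 16.6, and rises and falls cancel in that median. Without regard to sign, the genotype means of 2 libraries each differed by a median of 5.565. Without sign, the single replicates of 1 genotype differed from each other by a median of 5.72 (WT) and 5.69 (Sphk2 KO). An exact two-sided permutation test of 2 libraries against 2 cannot give a p below 0.333, so no single region could pass that test at 0.05.

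The split differed between isolated deep regions with and without a start, a difference that was not tested and may not be particular to them. Isolated deep regions without an annotated start split into 306 of 1107 higher in Sphk2 KO (27.6%) and 207 higher in WT (18.7%). All shared regions without a start split 26.1% and 19.96%, close to those shares. Isolated deep regions with a start split into 31 of 148 (20.9%) and 35 (23.6%), and the split of all shared regions with a start was not computed. Deep regions that were not isolated split 31.7% and 15.0%. Regions at gene ends, 79.98% of which held a start, split 16.9% and 23.4%. The libraries also differed in other ways. In the usual order, fragments kept were 33859480, 34443062, 25877428 and 27686223, and the fragment sizes stated in the file headers were 156, 177, 179 and 193 bp, so both Sphk2 KO libraries had fewer and longer fragments. Their part in the split was not tested.

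**Figure D5:**
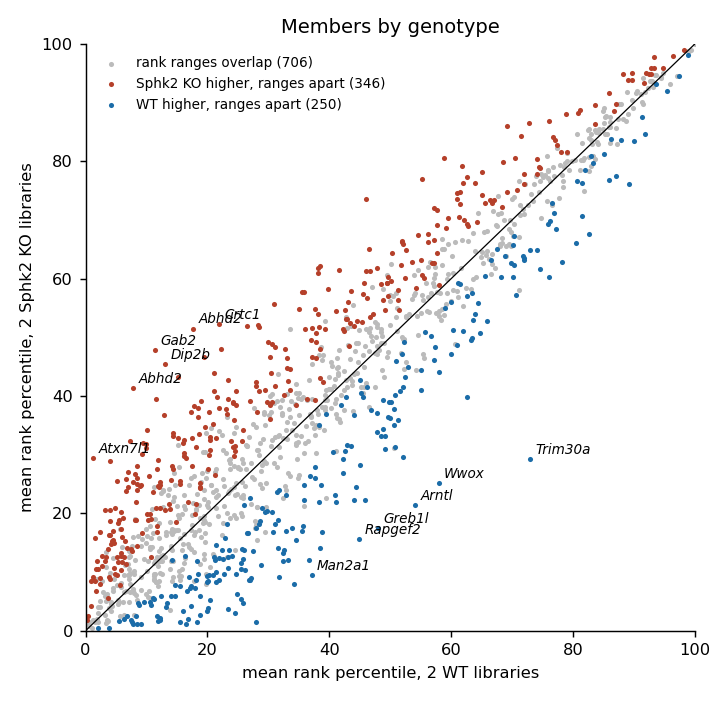
Mean rank percentile of the 1302 isolated deep regions in the 2 WT libraries (x axis) and the 2 Sphk2 KO libraries (y axis), each region 1 point, with the line of equality. Colours mark the 346 regions with both Sphk2 KO libraries above both WT libraries, the 250 with both below and the 706 that overlap; the 6 regions with the largest difference in each direction are named.

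Regions higher in Sphk2 KO with the largest differences lay in Gab2, Abhd2, Dip2b, Crtc1 and Atxn7l1. Gab2, a docking protein of cytokine receptor signalling, had percentiles of 10.6 and 12.2 in WT against 46.5 and 49.1 in Sphk2 KO. Abhd2, a lipid hydrolase, held 2 such regions, with 17.6 and 17.7 in WT against 59.4 and 43.6 in Sphk2 KO, and with 3.84 and 11.7 against 46.5 and 36.2. None of these ranges overlapped. Dip2b had 12.3 and 13.7 against 54.4 and 36.5. Crtc1, a coactivator of CREB, had 13.6 and 30.3 against 56.8 and 47.6, and Atxn7l1 had 1.92 and 0.585 against 26.0 and 32.8. None of the 6 held an annotated start. Gab2 and Abhd2 are on chromosome 7, which also carries Sphk2, as are Trim30a and Arntl, whose regions were higher in WT. On that chromosome 25 of 82 isolated deep regions were higher in Sphk2 KO (30.5%) and 13 in WT (15.9%), where all shared regions there had 23.8% and 21.1%. Chromosome 11 had 32.5% and 16.25% of its isolated deep regions, where all shared regions there had 21.75% and 21.3%. Chromosome 19 had 34.9% and 13.95%, where all shared regions there had 24.5% and 17.2%. Chromosomes 3, 12 and 16 went the other way, with 20.4% and 26.5%, 12.8% and 23.4%, and 24.1% and 25.9%. All shared regions on those 3 had 23.4% and 21.8%, 21.0% and 21.0%, and 26.1% and 20.1%. The counts were small: 10 and 13 of 49 on chromosome 3, 6 and 11 of 47 on chromosome 12, and 13 and 14 of 54 on chromosome 16. On chromosomes 11 and 19 they were 26 and 13 of 80, and 15 and 6 of 43. Chromosome 8 had 19 and 19 of 67. Chromosomes 11, 19, 3, 12 and 16 are named for these values, and differences between chromosomes were not tested.

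Regions higher in WT with the largest differences lay in Trim30a, Wwox, Arntl, Greb1l, Rapgef2 and Man2a1. Trim30a had percentiles of 68.9 and 77.1 in WT against 30.1 and 28.4 in Sphk2 KO, a difference of -43.8, and −log10 q of 56.8, 81.1, 11.8 and 23.4. Arntl had 57.6 and 50.7 against 14.7 and 28.1, and Wwox, an oxidoreductase gene, had 61.1 and 54.8 against 18.0 and 32.3. The windows printed above for Trim30a and Arntl belong to these regions, so 2 of the 6 lay at an annotated start. The chromosome of Greb1l is not in the start table. Trim30a has near-identical neighbours, so its reads may be split among copies and its value is uncertain. Greb1l had 45.2 and 50.8 against 15.0 and 20.02. Rapgef2, an exchange factor for Rap, had 37.5 and 52.2 against 3.75 and 27.4, and Man2a1, a mannosidase of the Golgi, had 33.7 and 40.5 against 7.08 and 11.9.

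Of the 5 isolated deep regions in interferon and antigen presentation genes, 3 were higher in WT and none in Sphk2 KO, where 21.4% and 22.1% of shared regions were. They were those of Trim30a, Adar and Cd86, a costimulatory molecule. The gene lists were chosen with earlier results of these data known, and Trim30a was already named above for its difference, so the count is descriptive. The median rank percentile of the 5 regions was 5.28, against 34.3 for all isolated deep regions, so the list included weak calls. Adar had percentiles of 77.6 and 78.8 in WT against 56.9 and 68.7 in Sphk2 KO. Cd86, which is outside the naming rule and was chosen after its values were seen, had 12.0 and 4.96 against 1.35 and 0.946. Cd80, the related costimulatory gene, and Nlrc5, an activator of MHC class I genes, overlapped between genotypes. Monocytic markers with a gene-end peak numbered 6, 7, 3 and 4 of 8, granulocytic markers 7 of 13 in each library, and dendritic markers 2, 2, 1 and 2 of 4. T cell markers with such a peak numbered 1, 5, 1 and 2 of 12, most in WT replicate 2. B cell and red cell markers had none. In the same library order the lists held 31036, 31361, 20412 and 26997 autosomal peaks, so a marker could be missed more easily in Sphk2 KO. The share of all genes with a gene-end peak is not given here, so these counts do not compare the genotypes. Of the sort's own markers, Ly6g had no gene-end peak in any library. The part of the cell mixture in these results was not tested.

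The other lists are read against the 22.1% and 21.4% of all shared regions. Haematopoietic transcription factors had 13 of 46 regions higher in Sphk2 KO and 11 in WT, signalling genes 21 and 16 of 82, lipid genes 6 and 6 of 25 and chromatin genes 9 and 5 of 31. Zeb2 was among those higher in WT, with percentiles of 84.3 and 78.6 against 68.8 and 72.6. Nrp2, a semaphorin co-receptor, was higher in Sphk2 KO, with 27.9 and 32.0 against 50.2 and 48.4. A difference of at least 20 points was seen in 56 isolated deep regions (4.30%), against 3.17% of all shared regions.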

How the data were processed

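ATAC-seq peak lists of 4 libraries were used, 2 from WT and 2 from Sphk2 KO mice, grouped by the genotype in the labels. The submitters' processing notes list cutadapt, BWA, MACS2 and mm10, with no role for each. MACS 2.1.1.20160309 called each library on its own, per the file headers, at a q-value of 0.05 without a control library, with 1 fragment kept per position and a local background of 10 kb. The sources used here do not say if fragment ends were shifted for Tn5. The deposited lists give each peak's position, its pileup (the coverage signal in fragments at the summit, with no scaling to depth), its p-value and its q-value as −log10, and a fold enrichment, the ratio of pileup to local background, all as the authors' caller computed them. Pileup and −log10 values grow with depth, so all scores were ranked within a list. Fragments kept numbered 25877428 to 34443062 and listed peaks 20759 to 31843.

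Regions, classes and rank percentiles were computed with Python 3.11.15, pandas 2.3.3, numpy 2.4.6 and SciPy 1.17.1, after the scripts had been tested on simulated data. Gene extents and start windows came from RefSeq tables for GRCm38.p6, matched by symbol. The gene table has no strand and no exons, so strand came from the start windows, which cover no start on chromosome 18. Coordinates count from 1. A region of several peaks took the best peak by −log10 q in each library. Genes were named by rule: the 24 regions with the best worst-of-4 rank, the 6 with the largest percentile difference per direction among those whose genotypes did not overlap, up to 4 hosts per gene list, the 3 nearest each side of both distance limits, and hosts with the most regions. A few genes and lists taken this way are not reported. The regions, gene lists and rules were chosen with earlier results of these data known. Other settings changed the summit, the overlap, the distances, the score threshold, the list length, the ranking score, the replicate block and the libraries used. A setting without regions that hold an annotated start, and the windows printed for Trim30a, Arntl and Adar, were chosen after seeing the data. Figures were drawn with matplotlib 3.10.9.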

Additional observations from a re-analysis of the deposited data

How the results depend on the processing

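The number of isolated deep regions (1302) stayed within 1.5 times under 8 of the 10 settings that kept all libraries, and became 2209 when other shared regions were kept out to 5 kb only and 716 when kept out to 25 kb. The median rank percentile (34.3) became 36.2 and 30.7 under those 2 settings and 31.6 without regions that hold an annotated start, a setting chosen after seeing the data. The share of hosts with a shared region at a gene end (56.5%, 95% Wilson interval 53.4 to 59.6%) became 50.8% with gene ends over 5 kb away, 49.3% with isolation to 25 kb and 59.9% without regions that hold a start. The median width kept within the spread between libraries under all of these. With each library left out in turn, the number ran from 1307 to 1604, highest without Sphk2 KO replicate 1, the median percentile from 31.3 (without the same library) to 34.8, the median width from 816 to 876 bp and the share of hosts from 56.0% to 58.5%. Regions higher in Sphk2 KO then numbered 510 to 565 and regions higher in WT 391 to 423, since 1 library stands for its group, where all shared regions gave 35.8 to 37.2% and 34.4 to 36.9%. Ranks as a percentile of the whole list, where lists differ in length, turned the split of 346 and 250 into 41 and 665, where all shared regions gave 2.50% and 54.4%. By fold enrichment the split was 283 and 250 (21.7% and 19.2%, against 18.6% and 18.1% of all shared regions). With the replicate block, which asks for the same direction in both numbered pairs, it was 468 and 316 (35.9% and 24.3%, against 29.9% and 28.8% of all shared regions). Libraries with the same number did not deviate together (correlation 0.0103 over shared regions), so the numbers were not taken to pair libraries. The difference changed sign in 12 of 89 named regions by pileup, all with overlapping ranges, and in 15 by fold enrichment, 5 of them among those whose genotype ranges did not overlap: Lrrfip1 (-0.663 points), Tiam1 (-0.883), Tgm2 (-1.27), Hecw2 (-4.71) and Arhgap18 (-1.23). Depth limits the weak calls, and a region absent from a list may still be open below the threshold.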
